A study of Mus musculus with 9 samples.

Results

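The 2 ends of the olfactory lineage that were sorted here, mature olfactory sensory neurons (mOSN) and horizontal basal cells (HBC), were compared gene by gene through 1 poly-A RNA library of each. These are 2 of the 9 samples of the series, and a library of globose basal cells (GBC) was set beside them. All 3 populations were sorted at 4 weeks of age from mouse main olfactory epithelium. The mOSN library came from cells positive for EGFP in an OMP-ires-EGFP reporter, the GBC library from cells positive for Neurog1-EGFP, and the HBC library from cells stained by a PE-coupled antibody to CD54. The labels used here give no strain, sex, number of animals or sort purity. Every one of the 21909 gene symbols in the tables was compared. Of these, 14092 reached 1 FPKM (fragment counts per transcript length, scaled to the depth of the library) in either library and are called measured. With 1 library a group there is no replicate error and no test: a difference describes these libraries. The mOSN and GBC libraries were made with an Illumina mRNA kit and the HBC library with ScriptSeq, so population and library kit cannot be told apart.

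Horizontal basal cells lie flat on the basal lamina of the olfactory epithelium, express p63 and keratins, and act as a reserve stem cell that is activated by injury. Globose basal cells above them divide and supply new neurons. A mature sensory neuron carries odorant receptors on the cilia of its dendrite, converts odorant binding into cyclic AMP and an ion current, and sends an axon to the olfactory bulb.

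The sort genes followed the labels. Omp, a cytosolic protein of mature sensory neurons, was at 1487 FPKM in mOSN (deposited interval 1476 to 1497), 427 in GBC and 71.6 in HBC. Icam1, which encodes CD54, was at 136 FPKM in HBC (133.7 to 139.0), 0.349 in mOSN and 0.0456 in GBC. Both genes thus had clearly separated levels at the 2 ends, but Omp was not absent from HBC, where it was at 4.82% of its mOSN level.

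Transcripts of other cell types moved with the HBC library. All 27 measured macrophage markers were at least 2-fold higher there, with a summed level of 11803 FPKM (6.96% of the library's FPKM sum) against 16.6 in mOSN. Pf4, Aif1, Trem2 and Ms4a7 were listed at 0 in mOSN. The same direction held for 19 of 19 lymphocyte markers (266 against 1.79 FPKM summed) and 10 of 11 neutrophil markers (572 against 10.5). It also held for 11 of 13 endothelial markers (36.3 against 2.57) and 8 of 12 fibroblast and mural markers (174 against 12.7). The share over all measured genes was 23.0%. Only 2 macrophage markers and no lymphocyte or endothelial marker reached 1 FPKM in mOSN. These 3 lists were thus measured mainly or only through HBC, which favours that direction. Endothelial markers reached at most 7.22 FPKM in HBC. CD54 is carried by leukocytes and endothelial cells as well as by horizontal basal cells. Of 25 immediate early genes, which respond within minutes to stimulation or to cell dissociation, 24 were at least 2-fold higher in HBC, with 6298 against 641 FPKM summed. The part that these cells and this response have in the results below was not tested. In such bulk libraries a smaller number of cells and less RNA per cell cannot be told apart.

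By the width of the deposited intervals, the values rest on about 16515790 fragments in mOSN and 18123310 in HBC. The FPKM values add up to 238529 in mOSN and 169662 in HBC, a ratio of 1.41. Over all measured genes the median of log2((mOSN FPKM + 1)/(HBC FPKM + 1)), the log2 ratio used throughout, was 0.63. It was 0.19 after scaling both libraries to a common sum, and every list median below is read beside it.

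A gene was called higher at one end when its log2 ratio was at least 2 in size (4-fold) and its level there at least 5 FPKM. Of 9779 genes with that level, 2351 (24.0%) were higher in mOSN and 1549 (15.8%) in HBC. The mOSN side thus held 60.28% of the 3900 calls. That share was 48.17% after scaling to a common sum, 47.03% after median-of-ratios scaling and 47.85% when 1 length conversion per gene was used for both libraries. Odorant receptor genes made up 418 of the calls higher in mOSN.

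The ratios were larger at the HBC end. At least 64-fold differences numbered 65 among the genes higher in HBC and 23 among those higher in mOSN, and the median level of the called genes in the other library was 0.307 FPKM in mOSN and 1.14 FPKM in HBC. The genes called higher in mOSN held 47.1% of the mOSN FPKM sum and 4.52% of that of HBC. The genes called higher in HBC held 39.5% of the HBC sum and 1.11% of that of mOSN. Among the 100 most abundant genes of each library, 17 were shared. Spearman's rho of the levels was 0.66 across genes, which are not independent replicates.

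**Figure D1:**
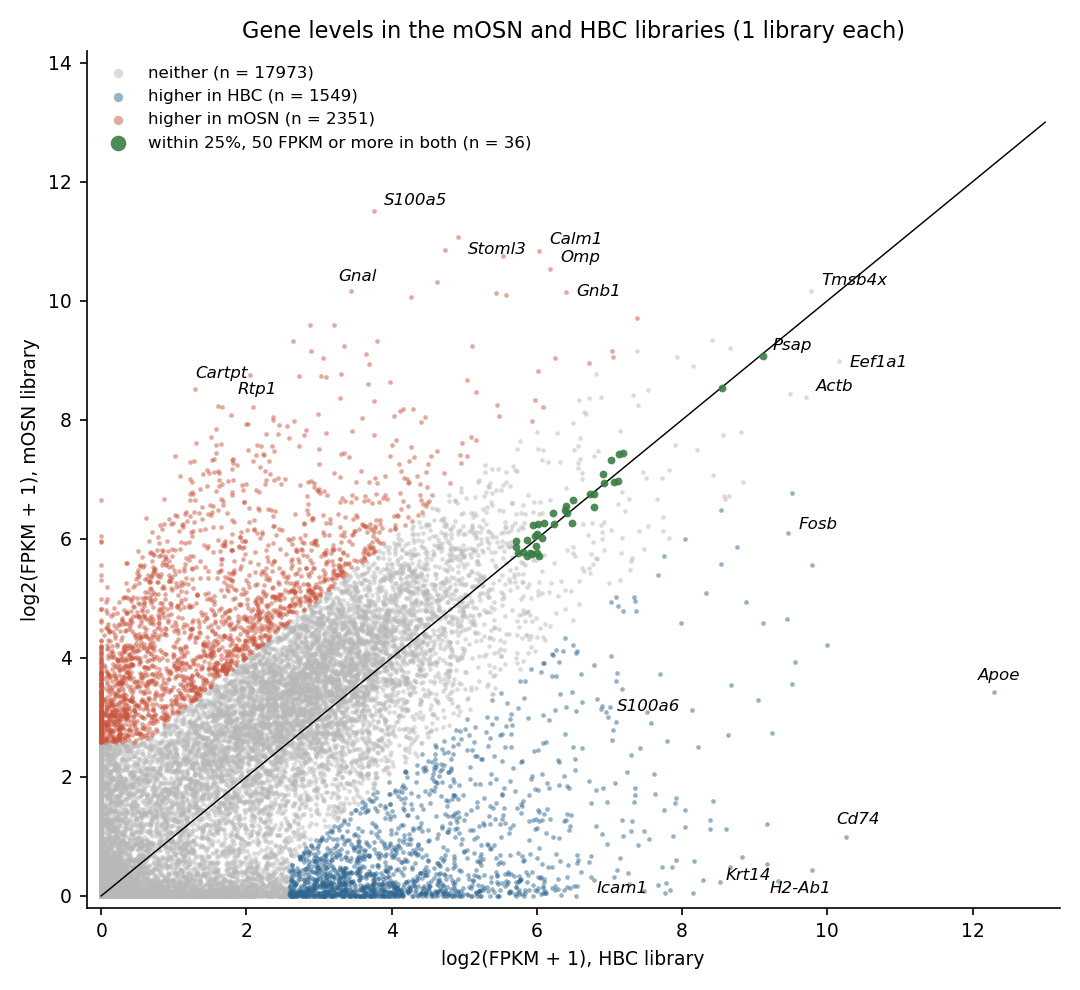
Level of each gene, as log2(FPKM + 1), in the HBC library (x axis) and the mOSN library (y axis), 1 point per gene; the line marks equal values. Red and blue points are the 2351 and 1549 genes called higher in mOSN and in HBC, and the 36 green points are at least 50 FPKM in both and within 25%.

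The gene with the largest log2 ratio at the neuronal end was also the most abundant one there. S100a5, a small calcium-binding protein of olfactory neurons, was at 2918 FPKM in mOSN, against 185 in GBC and 12.5 in HBC, a log2 ratio of 7.75. Its nearest neighbour in the S100 cluster on chromosome 3 went the other way. S100a6, a calcium-binding protein of dividing and epithelial cells, was at 6.99 FPKM in mOSN, against 0.680 in GBC and 126 in HBC. In mm9, S100a5 lies at 90412444 to 90415702 and S100a6 at 90416816 to 90418336, with 1113 bases between them. Among 82 neighbouring pairs within 10000 bases that were called in opposite directions, this was the only one in which each gene reached 100 FPKM at its high end. The other S100 genes of the cluster were mostly higher in HBC. S100a4 was at 0.459 FPKM in mOSN and 45.3 in HBC. S100a10 was at 0.252 and 107 FPKM, and S100a11 at 2.52 and 163 FPKM. S100a3, which lies on the other side of S100a4, was at 3.32 FPKM in mOSN and listed at 0 in HBC.

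The promoters of the genes that mark each end, and of the most abundant gene at like levels in both, are printed to show what lies in front of them. Each is the 250 bases before the RefSeq start site in GRCm38.p6, 5′ to 3′ on the gene's strand: S100a5 at chr3:90608272-90608521, S100a6 at chr3:90612644-90612893, Gng13 at chr17:25716922-25717171, Krt14 at chr11:100206031-100206280 on the minus strand, S100a11 at chr3:93520246-93520495 and Psap at chr10:60277378-60277627. Capitals mark a match on either strand to the motif chosen for that gene. It was CCCNNGGGA (a core bound by Ebf factors) for Gng13 and Krt14. For S100a11 it was TGANTCA (AP-1, the Fos and Jun dimer), and for Psap GCGCNTGCG (Nrf1). No other motif was marked, and the Psap window also holds an unmarked AP-1 match, tgagtca. For genes with several start sites, a window holding the chosen motif was printed where one existed.
S100a5: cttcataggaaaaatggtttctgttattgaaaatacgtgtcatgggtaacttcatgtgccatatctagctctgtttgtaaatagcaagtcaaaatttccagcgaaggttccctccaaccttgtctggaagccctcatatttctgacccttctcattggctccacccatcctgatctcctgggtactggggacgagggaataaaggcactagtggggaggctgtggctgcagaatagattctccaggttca
S100a6: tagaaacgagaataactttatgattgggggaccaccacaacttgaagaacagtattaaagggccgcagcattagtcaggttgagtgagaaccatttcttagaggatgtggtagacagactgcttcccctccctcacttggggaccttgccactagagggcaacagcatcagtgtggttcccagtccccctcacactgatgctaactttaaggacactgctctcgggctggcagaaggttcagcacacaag
Gng13: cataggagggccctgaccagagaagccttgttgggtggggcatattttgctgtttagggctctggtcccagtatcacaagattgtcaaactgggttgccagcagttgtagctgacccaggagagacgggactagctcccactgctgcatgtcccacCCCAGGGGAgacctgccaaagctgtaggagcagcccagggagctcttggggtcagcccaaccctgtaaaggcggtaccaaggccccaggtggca
Krt14: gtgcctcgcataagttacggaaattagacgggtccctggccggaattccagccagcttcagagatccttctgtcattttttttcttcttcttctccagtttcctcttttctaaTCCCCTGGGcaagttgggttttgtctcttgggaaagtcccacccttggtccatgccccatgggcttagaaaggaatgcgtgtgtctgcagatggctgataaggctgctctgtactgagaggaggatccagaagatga
S100a11: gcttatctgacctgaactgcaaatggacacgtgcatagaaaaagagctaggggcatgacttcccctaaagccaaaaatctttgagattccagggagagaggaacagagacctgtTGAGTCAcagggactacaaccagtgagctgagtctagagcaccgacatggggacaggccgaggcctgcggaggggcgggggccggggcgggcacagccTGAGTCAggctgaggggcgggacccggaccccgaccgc
Psap: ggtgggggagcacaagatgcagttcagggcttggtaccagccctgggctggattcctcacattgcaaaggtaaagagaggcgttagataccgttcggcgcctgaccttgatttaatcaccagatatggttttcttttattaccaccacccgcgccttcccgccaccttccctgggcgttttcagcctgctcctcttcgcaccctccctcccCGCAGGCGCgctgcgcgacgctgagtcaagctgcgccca

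The Ebf core was found once in the Gng13 window, from base -94, and once in the Krt14 window, from base -137, so genes of both ends carried it. The S100a11 window held 2 AP-1 matches, from bases -136 and -38. The S100a5 window had no match to the Ebf core and the S100a6 window none to AP-1, which says only that these letters are not in these windows. Over all 32851 promoters, 5.60% held the Ebf core. The share was 6.99% for the genes called higher in mOSN and 8.25% for those higher in HBC. For AP-1 the shares were 6.75% of all promoters, 4.85% in mOSN and 7.81% in HBC. The Rfx core GTTGCCNNG, bound by regulators of cilium genes, was in 4.09% of all promoters, 7.12% in mOSN and 3.39% in HBC. The Nrf1 motif was in 5.19% of all promoters, 9.10% in mOSN and 2.18% in HBC. Among genes higher by at least 16-fold with 20 FPKM or more, the Nrf1 share was 4.61% in mOSN, under that of all promoters, and 2.10% in HBC. For the Ebf core the order also turned there, with 8.76% in mOSN and 7.35% in HBC. Among the 36 promoters of the 29 matched genes at like levels, 7 held the Nrf1 motif. Promoters were matched for 1860 of the 2351 and 1184 of the 1549 called genes. Matches of different motifs were counted separately where they overlapped. The set of all promoters holds every promoter of the reference, whether or not its gene was expressed here. Its median GC content was 52.4%, against 56.8% for genes higher in mOSN and 57.6% for those higher in HBC. The part of GC content in the shares was not tested.

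The odorant transduction cascade was the list furthest toward the neuronal end. Of 20 measured genes, 19 were higher in mOSN by at least 2-fold and none in HBC, beside 40.4% and 23.0% of all 14092 measured genes, and the median log2 ratio was 5.33. Gnal, the stimulatory G protein subunit of olfactory neurons, was at 1141 FPKM in mOSN, against 157 in GBC and 9.87 in HBC. Gng13, its gamma subunit partner, was at 638, 133 and 5.25 FPKM in the same order. Adcy3, the adenylate cyclase that makes the cyclic AMP, was at 547, 32.8 and 11.5 FPKM. Cnga2, the main subunit of the cyclic nucleotide-gated channel, was at 570, 95.5 and 6.44 FPKM. The levels thus fell in the order mOSN, GBC, HBC for each of these 4 genes. Rtp1 and Rtp2, which help odorant receptors to the cell surface, were at 428 and 299 FPKM in mOSN and at 3.16 and 2.05 in HBC. Gm581, also known as Gfy (goofy), a Golgi protein of olfactory neurons, was at 1716 and 45.1 FPKM. Camk4, at 1.65 and 0.548 FPKM, was the member under 2-fold. The summed HBC level of the list was 2.70% of that in mOSN.

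The receptors themselves were low per gene and far higher at one end. Of 936 measured odorant receptor genes, 925 were higher in mOSN by at least 2-fold and none in HBC, beside 40.4% and 23.0% of all measured genes. All 936 reached 1 FPKM in mOSN and only 1 did in HBC. They thus counted as measured through mOSN, which favours that direction, and the count is no support beyond the levels themselves. Of all 1122 listed receptor genes, measured or not, 697 were listed at 0 in HBC, beside 4609 of all 21909 symbols. Their summed level was 5793 FPKM in mOSN and 69.1 in HBC, or 1.19%. Olfr536 had the highest receptor level in mOSN, 61.1 FPKM, and was at 0.580 in HBC. All 12 measured trace amine-associated receptors, of 15 listed, were higher in mOSN by at least 2-fold. Each of the 12 reached 1 FPKM in mOSN and none did in HBC, so this direction was nearly fixed by the limit. Taar6 had the highest level among them, 10.4 FPKM, and was listed at 0 in HBC.

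Cilium, synapse and axon genes made up a broad second tier. Of 44 cilium transport genes, 42 were higher in mOSN by at least 2-fold with a median log2 ratio of 2.91. Ttc8, a subunit of the BBSome that carries membrane proteins into cilia, was at 39.5 FPKM in mOSN and 0.928 in HBC. Ift80, of intraflagellar transport, was at 64.3 and 2.75 FPKM. Rfx3, a transcription factor of cilium genes, was at 39.1 and 1.37 FPKM. Genes of motile cilia stood on the same side: 14 of 16 markers of multiciliated respiratory cells were at least 2-fold higher in mOSN, with 377 FPKM summed against 22.8. Ccdc39, which positions the inner dynein arms of motile cilia, was at 36.3 and 0.381 FPKM, while Cdhr3 was listed at 0 in mOSN. The part of such cells in the cilium result was not tested.

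Of 28 synaptic vesicle genes, 27 were higher in mOSN by at least 2-fold and the median log2 ratio was 3.86. Slc17a6, the vesicular glutamate transporter VGLUT2, was at 101 FPKM in mOSN and 0.824 in HBC. Syt1, the calcium sensor of release, was at 107 and 1.41 FPKM. Among 37 axon guidance genes, 27 were higher in mOSN by at least 2-fold and 2 in HBC. Cntn4, a cell adhesion molecule of olfactory axons, was at 271 and 2.44 FPKM, and Kirrel2, which sorts olfactory axons into glomeruli, at 239 and 4.47 FPKM. Ephb2 and Nrcam were the 2 members higher in HBC, at 7.54 and 7.79 FPKM there.

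Genes of excitability were mostly high in the neurons. Of 26 channel and pump genes, 21 were higher in mOSN by at least 2-fold, with a median log2 ratio of 3.75. Kcnc4, a fast voltage-gated potassium channel, was at 297 FPKM in mOSN, against 19.4 in GBC and 3.26 in HBC. Scn9a, the sodium channel Nav1.7, was at 158 FPKM in mOSN and 1.42 in HBC. Kcnk1, a background potassium channel, was at 0.924 FPKM in mOSN and 6.78 in HBC.

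Transcription factors and RNA-binding proteins of neurons were less uniform. Of 20 measured factors, 15 were at least 2-fold higher in mOSN, 2 in HBC, and the median log2 ratio was 2.73. Atf5, which acts in receptor choice and neuron maturation, was at 1274 FPKM in mOSN, against 1129.7 in GBC and 23.7 in HBC. Ebf2, Ebf3 and Lhx2, which bind receptor promoters and enhancers, were at 124, 158 and 110 FPKM in mOSN and at 2.34, 3.27 and 2.50 in HBC. Mef2c, a MADS-box factor of neurons and muscle, was at 0.248 FPKM in mOSN and 11.1 in HBC. All 11 neuronal RNA-binding genes were higher in mOSN by at least 2-fold. Elavl3 was at 159 FPKM in mOSN and 2.48 in HBC, and Srrm4, a regulator of neuronal microexons, at 12.5 and 0.269.

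Peptide secretion genes were higher in mOSN for 10 of 12 members. Cartpt, which encodes the CART peptide precursor, was at 367 FPKM in mOSN and 1.45 in HBC, the second largest log2 ratio among the named genes of that end. Chga, a granin of dense-core vesicles, was at 638 and 12.9 FPKM. The mOSN end also held 2 stomatin proteins of membrane microdomains. Stoml3 was at 2148 FPKM in mOSN and 29.1 in HBC, and Stom at 1843 and 25.7 FPKM.

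At the HBC end, the basal keratin and p63 list was one-sided. All 21 measured members, the sort gene Icam1 among them, were called higher in HBC, beside 15.8% of the genes tested, and the median log2 ratio was -4.63. Trp63, which encodes p63, was at 49.2 FPKM in HBC, against 0.161 in GBC and 0.297 in mOSN. Krt14 and Krt5, the keratin pair of basal epithelial cells, were at 451 and 334 FPKM in HBC and at 0.565 and 1.17 in mOSN. Krt17 was at 286 and 0.508 FPKM. In GBC these 3 keratins were at 0.397, 0.493 and 0.478 FPKM, close to mOSN and not to HBC.

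Genes that fix a cell to the basal lamina were on the same side. Of 21 measured members, 20 were at least 2-fold higher in HBC, with a median log2 ratio of -2.97. Lamb3, a chain of laminin 332, was at 67.6 FPKM in HBC and 0.178 in mOSN. Col17a1, the transmembrane collagen of hemidesmosomes, was at 57.1 and 0.183 FPKM, and Itgb4, the integrin subunit it binds, at 52.8 and 0.268. Dst, at 27.1 FPKM in HBC and 24.9 in mOSN, was the exception.

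Junction genes were divided. Of 28 members, 16 were at least 2-fold higher in HBC, 4 in mOSN and 8 within 2-fold. Cldn4, a tight junction claudin, was at 86.5 FPKM in HBC and 1.251 in mOSN, and Dsp, the plaque protein of desmosomes, at 65.9 and 3.13 FPKM. Cldn3 was at 46.8 FPKM in mOSN and 4.11 in HBC. Epcam, a general epithelial adhesion protein, was at 67.1 and 44.6 FPKM, and Ctnnb1 (beta-catenin) at 107 and 109.

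Receptor and signalling genes leaned to HBC with exceptions. Of 19 growth factor receptor and ligand genes, 17 were at least 2-fold higher in HBC. Fgfr2, the receptor for epithelial fibroblast growth factors, was at 30.1 FPKM in HBC and 0.0589 in mOSN, and Epha2 at 25.2 and 0.128. Csf1r and Axl, at 202 and 75.3 FPKM in HBC, are also receptors of macrophages, and macrophage markers were high in the same library. Igf1r was at 26.3 FPKM in mOSN and 11.3 in HBC.

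In the Notch pathway 9 of 17 genes were at least 2-fold higher in HBC, 2 in mOSN and 6 within 2-fold. The receptor Notch2 was at 23.1 FPKM in HBC and 0.388 in mOSN. The ligand Dll1 was at 12.6 and 0.167 FPKM, and the target Hes1 at 50.1 and 1.27 FPKM. The ligand Jag1 was at 6.90 FPKM in HBC and 6.95 in mOSN. Notch2 and Hes1 also stand in the list of sustentacular cells, the supporting cells of the epithelium.

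Of 26 TGF-beta and BMP genes, 16 were at least 2-fold higher in HBC and 3 in mOSN. The ligand Tgfb1 was at 48.0 FPKM in HBC and 0.0291 in mOSN. Tgfbr2, a receptor for it, was at 46.2 and 0.293. The ligand Bmp6 was at 12.2 FPKM in mOSN and 0.777 in HBC. Of 23 Wnt genes, 15 were at least 2-fold higher in HBC and 1 in mOSN. The ligand Wnt4 was at 21.1 FPKM in HBC and 0.320 in mOSN, and the secreted antagonist Sfrp1 at 36.5 and 0.639. The receptor Fzd3, which acts in axon guidance, was the member higher in mOSN, at 19.6 and 1.34 FPKM.

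Matrix and actin genes were also high in HBC. Of 26 matrix and protease genes, 24 were at least 2-fold higher there, with a median log2 ratio of -4.28. Cyr61, a matricellular target of Yap, was at 263 FPKM in HBC and 1.72 in mOSN, and Sdc4, a heparan sulfate proteoglycan, at 240 and 2.12. Of 35 actin genes, 24 were at least 2-fold higher in HBC and 11 within 2-fold. S100a10 and its partner Anxa2, which link membranes to actin, were at 107 and 84.3 FPKM in HBC and at 0.252 and 1.58 in mOSN. Fibroblast genes moved in the same direction: Col1a1 was at 39.9 and 2.73 FPKM, and Dcn at 62.1 and 2.47. Their part in the matrix result was not tested.

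The most abundant genes of HBC were in large part those of other cell types or of acute responses. Apoe, an apolipoprotein of macrophages and glia, headed the library at 5045 FPKM against 9.71 in mOSN. H2-Ab1 and Cd74, of MHC class II, were at 880 and 1228 FPKM in HBC and at 0.347 and 0.994 in mOSN. Ctss, the cathepsin of antigen-presenting cells, was at 638 and 0.197 FPKM. Of the acute genes, Zfp36, which destabilises cytokine mRNA, was at 600.5 and 5.71 FPKM, and Atf3 at 527 and 8.79. Hspa1a, an inducible chaperone, was at 238 and 1.94 FPKM. Leaving the macrophage, lymphocyte, neutrophil, immediate early and antigen presentation lists out left 1468 genes called higher in HBC, against 1549 with them. These lists name only 28, 20, 12, 25 and 20 symbols, so the count could fall by little in any case. It does not measure the part of these cells and responses, which was not tested.

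Markers of supporting cells were divided between the libraries, while those of gland cells were on the HBC side or within 2-fold. Of 20 sustentacular genes, 12 were at least 2-fold higher in HBC and 4 in mOSN, with 2493 FPKM summed in HBC and 604 in mOSN. Cyp2f2 and Cbr2, detoxifying enzymes of these cells, were at 748 and 881 FPKM in HBC and at 14.3 and 46.4 in mOSN. Sult1d1, a sulfotransferase, was at 8.75 FPKM in HBC and 329 in mOSN, and Cyp2g1 at 11.1 and 46.1. Of 17 Bowman gland genes, 13 were at least 2-fold higher in HBC. Reg3g, an antimicrobial lectin, was at 68.6 FPKM there and 1.08 in mOSN. Lcn11 and Mup4 were listed at 0 in mOSN.

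**Figure D2:**
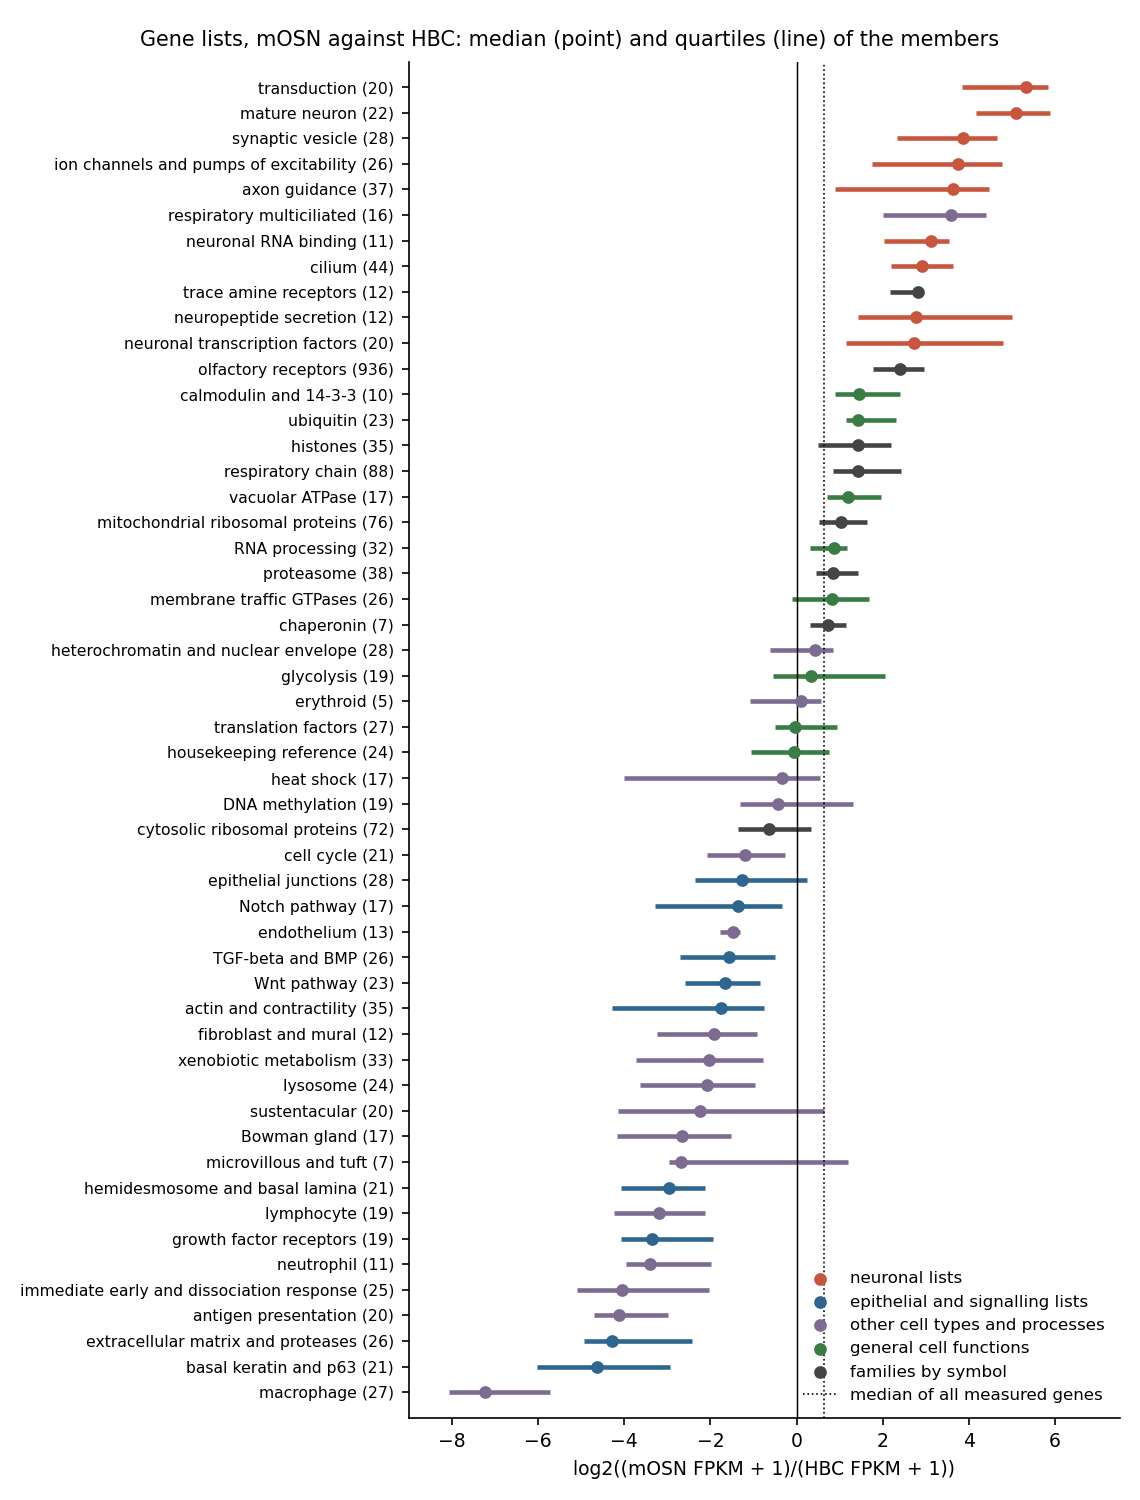
Median (point) and quartiles (line) of log2((mOSN FPKM + 1)/(HBC FPKM + 1)) over the members of each list of at least 5 measured genes, the number measured in brackets; the dotted line is the median of all measured genes, 0.63. Transduction (5.33) and mature neuron genes (5.10) stand at the top and macrophage genes (-7.24) at the bottom. The mature neuron list was not one-sided. Among its 22 measured members, 19 leaned to mOSN by 2-fold or more. In 3 members the lean was to HBC by that much, the lowest log2 ratio being -3.32.

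General cell functions lay between the ends. Respiratory chain and ATP synthase genes were higher in mOSN by at least 2-fold for 61 of 88 members, with a median log2 ratio of 1.43, which stayed positive under each scaling (0.95 to 1.12). Cox5b, a subunit of cytochrome oxidase, was at 171 FPKM in mOSN and 8.88 in HBC. Cytosolic ribosomal protein genes had a median of -0.63, with 27 of 72 at least 2-fold higher in HBC and 10 in mOSN. These genes have many processed copies, and the sources used here do not state how reads were divided among them. Translation factors had a median of -0.03, with 15 of 27 members within 2-fold. Nuclear RNA-processing genes had a median of 0.86 as deposited, which turned to -0.20 with 1 length conversion per gene. Membrane traffic GTPases turned from 0.82 to -0.28, the chaperonin from 0.74 to -0.16, and glycolysis from 0.35 to -0.11 with median-of-ratios scaling.

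A set of abundant genes was alike at both ends in the deposited values. At least 50 FPKM in both libraries were reached by 157 genes, of which 34 were at least 2-fold higher in mOSN, 28 in HBC and 95 within 2-fold. Within 25% (a ratio of at most that much above 1, in either direction) were 36 genes, or 22.9% of the 157. The share was 9.29% of all measured genes. The limit of 50 FPKM in both libraries itself leaves out genes high at only 1 end, so the shares cannot be compared directly. Psap, the precursor of the saposins that activate lysosomal lipid hydrolases, was the most abundant of them, at 535 FPKM in mOSN and 550 in HBC. Rpl41, a small ribosomal protein, was at 370 FPKM in mOSN, against 372 in HBC and 606 in GBC. Ctnnb1 was at 107 and 109 FPKM, Glul, the glutamine synthetase, at 107 and 105, and Neat1, the long noncoding RNA of paraspeckles, at 121 and 120. Lamp1, a lysosomal membrane protein, was at 173 FPKM in mOSN and 145 in HBC, and Bsg (basigin), a chaperone of lactate transporters, at 123 and 133.

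Which genes count as alike depended on the scaling. Of the 36 genes, 9 stayed within 25% after scaling to a common sum, 6 after median-of-ratios scaling and 13 with 1 length conversion per gene, and none under all 4 scalings at once. A wider band was more stable: 67 genes of at least 50 FPKM in both were within 2-fold under all 4. Tmsb4x, which holds actin monomers, led these 67 by level, at 1145 FPKM in mOSN and 877 in HBC, and its log2 ratio ran from -0.20 to 0.38 over the scalings. Hsp90ab1, the constitutive HSP90, was at 590 and 405 FPKM (-0.08 to 0.54). Psap ran from -0.58 to -0.04 and Ctnnb1 from -0.70 to -0.03.

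The level in GBC did not follow from equality at the ends. Of the 36 genes, 8 were over 1.5 times higher in GBC than at either end, 9 over 1.5 times lower and 19 neither. The GBC value of Psap, one of the 9, and the mOSN value of Canx, another of the 36, carry the status FAIL, with intervals that start at 0. Rps29 was at 247 FPKM in GBC, against 136 in mOSN and 120 in HBC, and Lamp1 at 47.4 FPKM in GBC. Of genes often used as references, 11 of 24 were within 2-fold between the ends. At least 2-fold higher were 6 in mOSN and 7 in HBC, beside 40.4% and 23.0% of all measured genes. These counts do not set the reference genes apart from genes in general. Hprt was at 36.9 and 31.7 FPKM. Actb, a common reference, was at 332 FPKM in mOSN and 833 in HBC, and B2m, which also pairs with MHC class I, at 10.7 and 406.

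**Figure D3:**
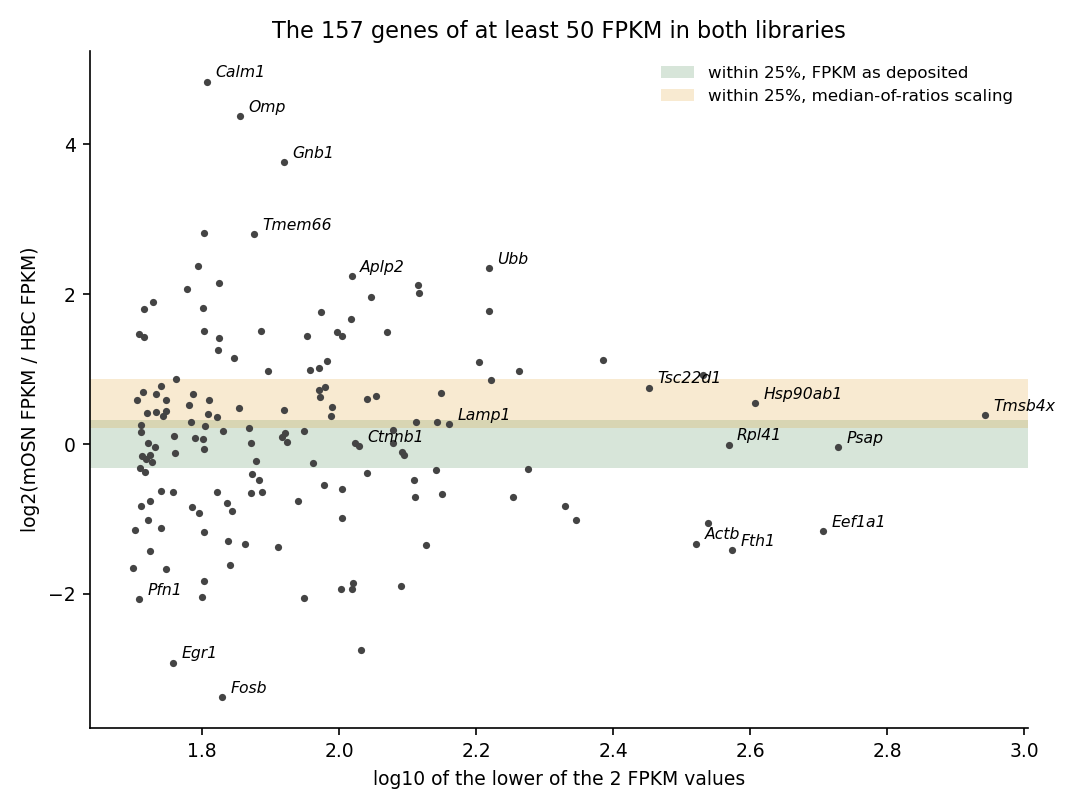
The 157 genes of at least 50 FPKM in both libraries: log10 of the lower of the mOSN and HBC levels in FPKM (x axis) against log2(mOSN FPKM / HBC FPKM) (y axis). The green band holds the 36 genes within 25% as deposited, and the yellow band shows where a range of 25% to either side lies after median-of-ratios scaling.

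Some related genes changed places between the ends. In 36 pairs made of a neuronal or sensory gene and a general or epithelial relative, the first gene's share of the pair's summed FPKM was higher in mOSN for 32 and lower for 4. Since the neuronal or sensory gene was put first by choice, this count cannot be read as a share for related genes in general. In 16 pairs the order itself switched, the first gene being higher than the second in mOSN and lower in HBC. In 14 pairs the second gene was higher in both libraries, in 5 the first, and 1 pair switched in reverse. In the G protein pair, Gnal made up 99.5% in mOSN and 6.96% in HBC, since Gnas, the general stimulatory subunit, was at 5.92 FPKM in mOSN and 132 in HBC. In the lactate dehydrogenase pair, Ldhb made up 99.1% in mOSN and 14.8% in HBC, with Ldha at 2.45 and 63.8 FPKM.

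The fusion machinery of secretion switched as a group of pairs. Snap25 made up 98.8% of its pair with Snap23 in mOSN and 12.1% in HBC. Vamp2 made up 99.3% of its pair with Vamp8 and 25.7% in HBC. Stx1a was at 65.9% and 3.57% of its pair with Stx4a. Among cytoskeletal genes, Tubb3, the tubulin of neurons, made up 99.3% of its pair with Tubb6 in mOSN and 8.94% in HBC. Pfn2 made up 55.4% of its pair with Pfn1 in mOSN and 1.63% in HBC. That switch was lost with 1 length conversion per gene, while the stomatin pair then switched. Of adhesion genes, Cdh2 made up 94.2% of its pair with Cdh1 in mOSN and 15.2% in HBC. Ptbp2, the neuronal splicing regulator, made up 65.8% of its pair with Ptbp1 in mOSN and 11.6% in HBC.

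Other pairs kept their order. Eef1a2, the elongation factor of neurons and muscle, stayed under Eef1a1 at both ends, at 29.9% of the pair in mOSN and 0.334% in HBC. Cfl1 and Myh9 were the higher member in both libraries. Stoml3 made up 53.8% of its pair with Stom in mOSN and 53.1% in HBC, so this pair moved as one. The cyclins were the reverse case: Ccnd2 was at 0.179 FPKM and Ccnd1 at 1.80 in mOSN, and they were at 42.8 and 41.3 in HBC. A ratio within a pair is free of the scaling of the libraries but not of the length used for each gene.

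**Figure D4:**
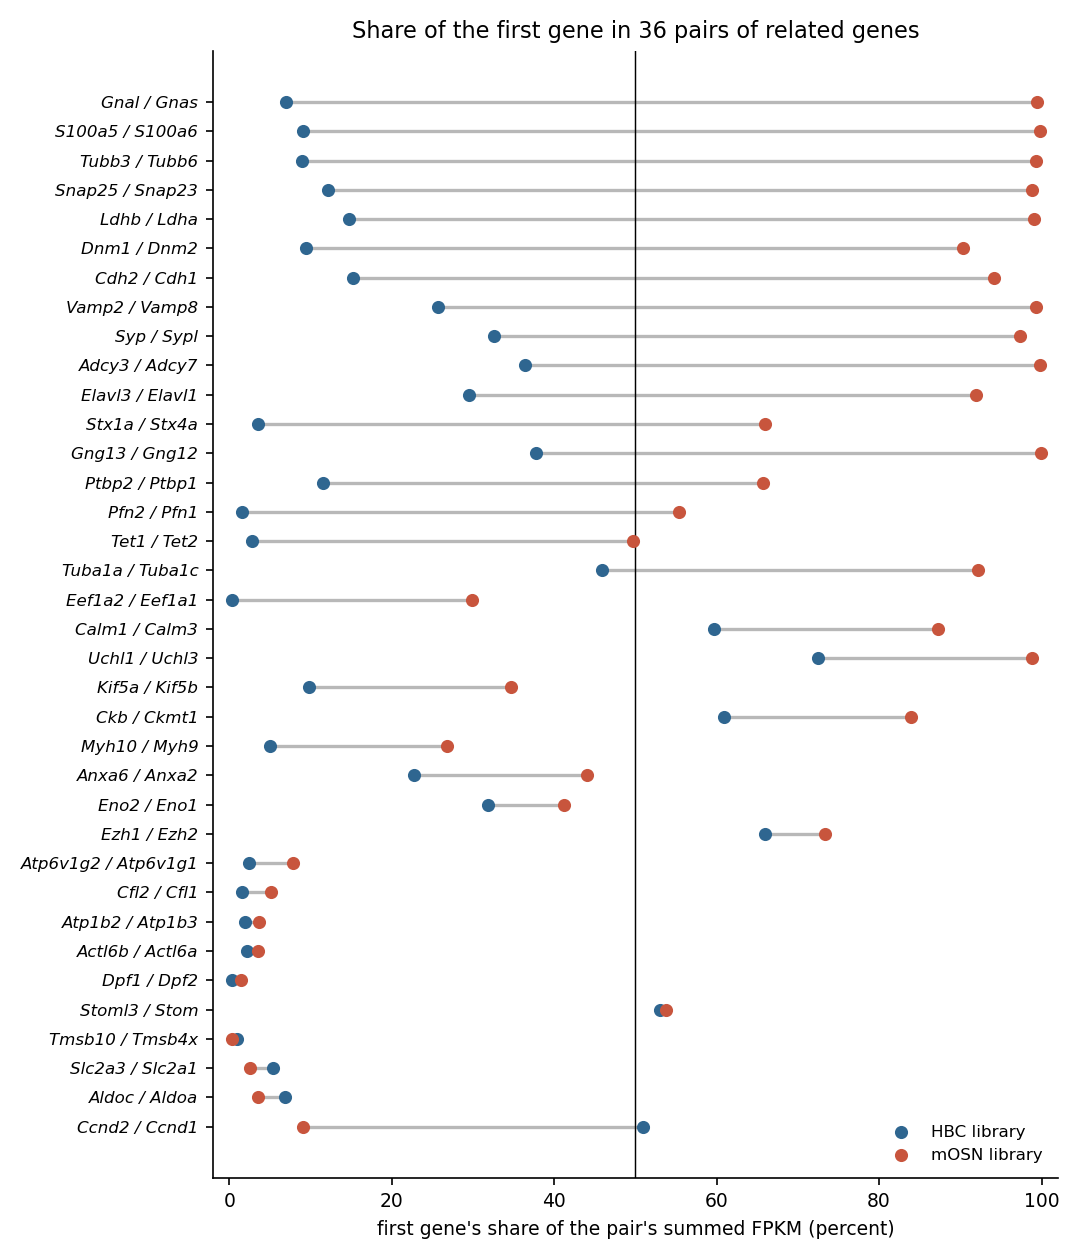
Share of the first gene in the summed FPKM of 36 pairs of related genes, in percent, in the HBC (blue) and mOSN (red) library; the vertical line marks 50 percent. In 16 pairs the mOSN point lies above the line and the HBC point under it, and 32 pairs have the mOSN point to the right of the HBC point.

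At the called genes, the GBC library stood closer to the neuronal end. Of the 2351 genes called higher in mOSN, 2020 had a GBC level between the ends, 300 above mOSN and 31 below HBC. On the log2(FPKM + 1) scale their median GBC position was 62.5% of the way from HBC to mOSN, and 64.6% of them were nearer mOSN. Of the 1549 genes called higher in HBC, 932 lay between, 586 below mOSN and 31 above HBC. Their median position was 1.53% of the way from mOSN to HBC, and 9.23% were nearer HBC. GBC and mOSN share a library kit that HBC does not, so kit and lineage cannot be told apart here either. Mature neuron genes summed to 2324 FPKM in GBC, against 12976 in mOSN and 341 in HBC. Macrophage genes summed to 14.6 FPKM in GBC, 16.6 in mOSN and 11803 in HBC. The part of such transcripts in these positions was not tested.

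Among the genes higher in mOSN, some were near their final level in GBC and others were not. Atf5 (1129.7 FPKM in GBC and 1274 in mOSN) and Elavl3 (149 and 159) were near it, and Tubb3 was above it, at 407 FPKM in GBC and 86.0 in mOSN. Stoml3 (158 FPKM in GBC), Dcdc2a (11.4 in GBC and 195 in mOSN) and Manea (16.8 and 208) were far below. Uchl1, a ubiquitin hydrolase of neurons, was at 341 FPKM in GBC, against 252 in mOSN and 5.31 in HBC.

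**Figure D5:**
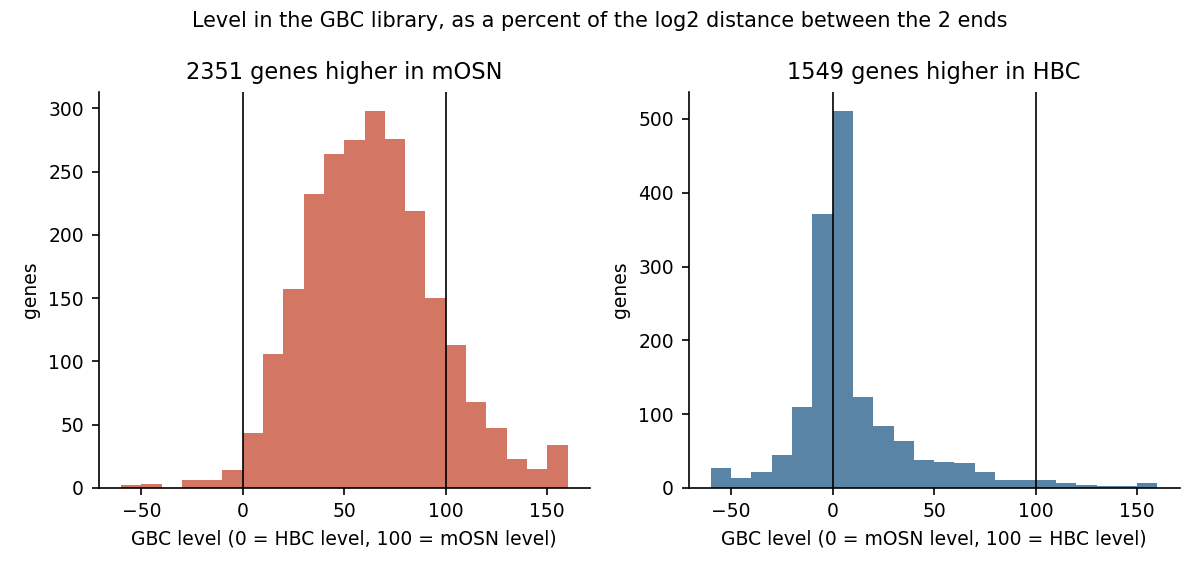
Number of genes (y axis) by the position of the GBC level on the log2(FPKM + 1) scale (x axis, percent), with 0 at the end where the gene is low and 100 where it is high; values beyond the axis are in the outermost bars. The 2351 genes higher in mOSN (left) centre on 62.5, and the 1549 genes higher in HBC (right) on 1.53.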

How the data were processed

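RNA of cells sorted from mouse main olfactory epithelium at 4 weeks of age was extracted with Trizol, selected for poly-A and amplified for 16 cycles, per the labels' protocols. The authors deposited 1 table per library that, per the file headers, gives each gene's FPKM with interval bounds and a status. Bowtie, TopHat, Cufflinks and the mouse build mm9 are named in the submitters' processing notes; the sources used here do not give versions, annotation or settings. FPKM divides by an estimated transcript length, so the conversion from fragments to FPKM differs between libraries: over 9660 genes its HBC to mOSN ratio had a 4.38-fold range between its 5th and 95th percentile.

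The 22345 rows of each table were summed by symbol, which concerned 222 symbols. Fragments per gene were taken from the interval widths, as the square of 2 times the FPKM over the half-width; they cover counting error only. Ratios used a pseudocount of 1 FPKM. Samples were grouped by title, and no test was run, with 1 library a group. The calling rule was checked on simulated counts with known changes, drawn with counting error alone and the same conversion for both libraries. The check does not cover differences of kit, scaling or conversion. List members count as measured at 1 FPKM in either library. A list whose members reach that level mainly in 1 library is therefore counted mainly toward that library. Of 1042 listed symbols, 1034 were found, 21 through a synonym. The members and lists were chosen with earlier results of these data known.

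Named genes are the sort genes, the 15 largest ratios a side among genes of at least 20 FPKM, up to 4 members a list with the largest ratio, the 20 most abundant genes at like levels, the 10 highest of each library and the members of the pairs. Other genes named (such as Trp63, Camk4, Epcam, Jag1, Bmp6, Fzd3, Igf1r, Cyp2g1, Dst, Mef2c, Kcnk1 and the S100 genes) were chosen after their values were seen. Promoters are from RefSeq GRCm38.p6, matched by symbol for 16655 of 21909 genes. Some genes, and 2 pairs that hold them, are not reported here. The 6 samples of 5-hydroxymethylcytosine and 5-methylcytosine were not analysed here. Python 3.11.15, pandas 2.3.3 and numpy 2.4.6 were used. Alternatives covered the pseudocount, the thresholds, 3 other scalings, rows with a status other than OK and rows of 1 symbol.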

Additional observations from a re-analysis of the deposited data

How the results depend on the processing

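With a pseudocount of 5 FPKM, 918 genes were higher in mOSN and 645 in HBC; with at least 20 FPKM in the higher library, 1143 and 632; with 2-fold as the limit, 4340 in mOSN. The all-gene median was 0.76 with a pseudocount of 0.1, 0.34 with 5, 0.19 with a common sum, 0.15 with median-of-ratios scaling and 0.11 with 1 conversion per gene. Genes at like levels numbered 183 at 20 FPKM in both, 11 at 100 FPKM, 58 within 1.5-fold and 0 within 25% under 4 scalings at once, the last chosen after seeing the data. The cause was not tested. The median of microvillous and tuft cell genes was -2.68, and 2.25 when members needed 20 FPKM, a limit that leaves fewer members. No other list median of at least 1 in size, and no ratio of a named gene called at either end, changed sign. Over all alternatives, 394 values of list medians moved by at most 0.5 and 132 by more, and 2023 ratios of single genes moved by at most 1.5-fold and 434 by more. Counts without odorant receptors (1933 in mOSN) or without rows of another status (2334 and 1545) stayed within 1.5 times. Each library is 1 sample, so no setting could leave one out. No paired analysis was possible because each group has 1 library and no test was run.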

Other observations

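Gene families grouped by symbol after the values were seen overlap the lists above, such as Scn9a, Syt1, Anxa2 and Col17a1, but count each family whole. Of 9 measured voltage-gated sodium channel genes, 8 were higher in mOSN by at least 2-fold (449 FPKM summed against 14.3 in HBC), and of 9 synaptotagmins, all 9 (431 against 8.58). Of 60 protocadherins, adhesion proteins with which neurons tell themselves apart, 46 were at least 2-fold higher in mOSN, with 528 FPKM summed against 49.4. Kinesins (16 of 27) and axonemal and cytoplasmic dyneins (16 of 19) were on the same side, and their median log2 ratios of 1.97 and 1.92 stayed above 1 under each scaling.

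At the HBC end, none of 9 annexins and none of 23 collagens was at least 2-fold higher in mOSN, and the annexins summed to 380 FPKM in HBC against 113. Chemokine ligands summed to 535 FPKM in HBC and 18.3 in mOSN, and NF-kappa-B factors to 382 and 58.8, in the library where macrophage markers were high. The aminoacyl-tRNA synthetases summed to 1266 FPKM in HBC and 409 in mOSN although their median log2 ratio was 0.59. The sum rests on Lars2, the mitochondrial leucyl-tRNA synthetase, at 1016 FPKM in HBC, against 47.5 in GBC and 17.6 in mOSN.

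Clustered histone genes were higher in mOSN by at least 2-fold for 21 of 35 measured members, beside 40.4% of all measured genes. Of the 35, 32 reached 1 FPKM in mOSN and 8 in HBC, so the limit was passed mainly through mOSN. In HBC 23 of 68 were listed at 0, beside 4609 of all 21909 symbols. Hist2h2be was at 604 FPKM in mOSN, against 242 in GBC and 9.15 in HBC. Among DNA methylation genes, the methyltransferase Dnmt3a was at 46.0 FPKM in mOSN and 8.78 in HBC, and Gadd45b, which is also an immediate early gene, at 1.59 and 67.2. Nuclear envelope genes went separate ways: Lmna (lamin A and C) was at 5.17 FPKM in mOSN and 131 in HBC, and Sun1 at 71.3 and 12.7. Nqo1, a quinone reductase, was at 187 FPKM in mOSN and 5.61 in HBC, while Gsto1, a glutathione transferase, was at 0.800 and 167.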
